A study of Mus musculus with 8 samples.

Results

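The interaction between genotype and glucose starvation was examined across 16232 genes in mouse embryonic fibroblasts (MEFs), which are connective tissue cells grown from embryos. The deposited table listed 49492 genes, and those reaching 1 in 2 or more of the 8 RNA-seq samples were kept. For each gene, the response of one line was its mean level under starvation less its mean level in normal medium, and the interaction was the RA response less the WT response. The aim of the comparison was to find which pathways answered starvation differently when Pontin could not be methylated, beyond the smaller response of RA MEFs as a whole. For this purpose 36 lists of genes that share no member were described, which held 1364 tested genes. The lists were written with earlier results of these data known, so counts within them are descriptive.

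All MEFs in the comparison came from Pontin f/f animals, whose Pontin gene can be excised, and were grown by the 3T3 protocol. They were transduced with lentivirus for a Flag-tagged Pontin, selected in hygromycin, and given Cre virus to delete the endogenous copy, so controls and mutants carried the same deletion. WT MEFs expressed the wild-type protein and RA MEFs a form with alanine in place of a pair of arginines that the enzyme CARM1 methylates. Both were kept in normal medium or starved in glucose-free DMEM with 10% dialyzed serum, for a time not given in the sources used here. This gave 4 groups with 2 samples each. Each genotype was 1 stable line, so the line and the Pontin form cannot be told apart. Nothing in the labels said that the samples of a group came from separate cultures, so p-values measure only the spread between these samples, which may be technical.

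Pontin, the product of Ruvbl1, is an AAA+ ATPase that forms rings with its partner Reptin, the product of Ruvbl2. It is found in the chromatin complexes TIP60, INO80 and SRCAP and in the R2TP chaperone complex, and it serves as a cofactor for several transcription factors. Cells that lose glucose activate AMPK, lower mTORC1 activity, express autophagy and lysosomal genes through FOXO and TFEB family factors, induce the unfolded protein and ATF4 responses, and reduce sterol synthesis and cell division.

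Values are CPM of a library size that the authors had scaled, and single genes are given per sample in CPM. Responses, interactions, departures and list levels are on the scale log2(CPM + 1), which understates changes of low genes. Samples held 43205841 to 56363034 recovered reads. Ruvbl1 stood at 28.4 and 27.6 in WT and 36.8 and 32.05 in RA in normal medium, and 27.9 and 28.4 in WT and 45.05 and 42.9 in RA under starvation. Its reads include the added copy wherever that copy shares the coding sequence, so they do not check the deletion. The interaction of Ruvbl1 was 0.34 ± 0.09 (SE, BH-adjusted p = 0.00568, limma), and that of Ruvbl2 was 0.04 ± 0.07 (SE, BH-adjusted p = 0.64, limma). All 10 fibroblast markers were detected, and their summed value was 10939 to 11042 CPM in unstarved WT, 5596 to 5681 in starved WT, 10874 to 11216 in unstarved RA and 7371 to 7381 in starved RA. Of the 10 immune markers 2 reached 1 CPM in at least 2 samples, namely Csf1r and Cd68, and Cd3e was at 0 in every sample. In bulk samples, fewer cells of a type and less RNA per cell cannot be told apart.

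Taken over all genes, RA MEFs responded to starvation less strongly than WT MEFs. The major axis through the responses of the genes, which are not independent replicates, rose by 0.635 in RA for each unit in WT, with an intercept of 0.0435, and this slope was 0.633 from the samples numbered 1 and 0.639 from those numbered 2. The correlation of the responses across genes was 0.782, and they shared no sample. Starvation raised 39.3% and lowered 39.2% of the tested genes in WT (limma, BH-adjusted p under 0.05), against 35% and 33.7% in RA. The interaction was called for 8207 genes, with 24.5% of the tested genes positive and 26.1% negative. This balance depended on the scaling. It was 3972 positive and 4235 negative with the authors' scaling, 4648 positive and 3353 negative with total reads and 4307 positive and 3789 negative in edgeR. Other scalings moved it the other way, to 3459 positive and 4577 negative with quantile normalization and 3864 positive and 4422 negative with median-ratio scaling. A positive interaction can mean a larger rise, a smaller fall or a turn from fall to rise, so the genes were also sorted by the direction of each response. Both lines moved the same way, with a smaller response in RA, for 3759 genes (23.2%), and with a larger response in RA for 657 genes (4.05%). A further 4429 moved the same way with no difference called, 773 moved in opposite directions, 3138 were called in WT alone, 1539 in RA alone and 1937 in neither. A call in one line alone does not show that the responses differed, which is what the interaction tests.

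To set pathways apart from this overall weakening, the departure of each gene was taken as its RA response less the value of the line at its WT response. A departure above 0 places the RA response higher than the line, and one below 0 places it lower. The departure was called for 7364 genes by limma with BH adjustment, 18.2% of the tested genes above the line and 27.2% below it. Those above made up 40.1% of the calls, which became 49.1% with a line through the origin, and 53.5% in edgeR and 50.05% in DESeq2, both with such a line. The median departure over all tested genes was -0.05, with quartiles of -0.24 and 0.17. The departure varied with the mean response over both lines. That mean includes the RA response, from which the departure is also taken, so part of this follows from the definitions. Genes whose mean response over both lines exceeded 2 had a median departure of 0.54 (117 genes), and those whose mean response was below -2 had a median of -0.26 (177 genes). By level, the median departure went from 0.02 for genes at 3 to 10 CPM to -0.14 for genes at 100 CPM or more. List medians were therefore also taken relative to genes of the same response class or level class, an alternative chosen after the data had been seen. Medians relative to a response class carry the dependence named above.

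**Figure D1:**
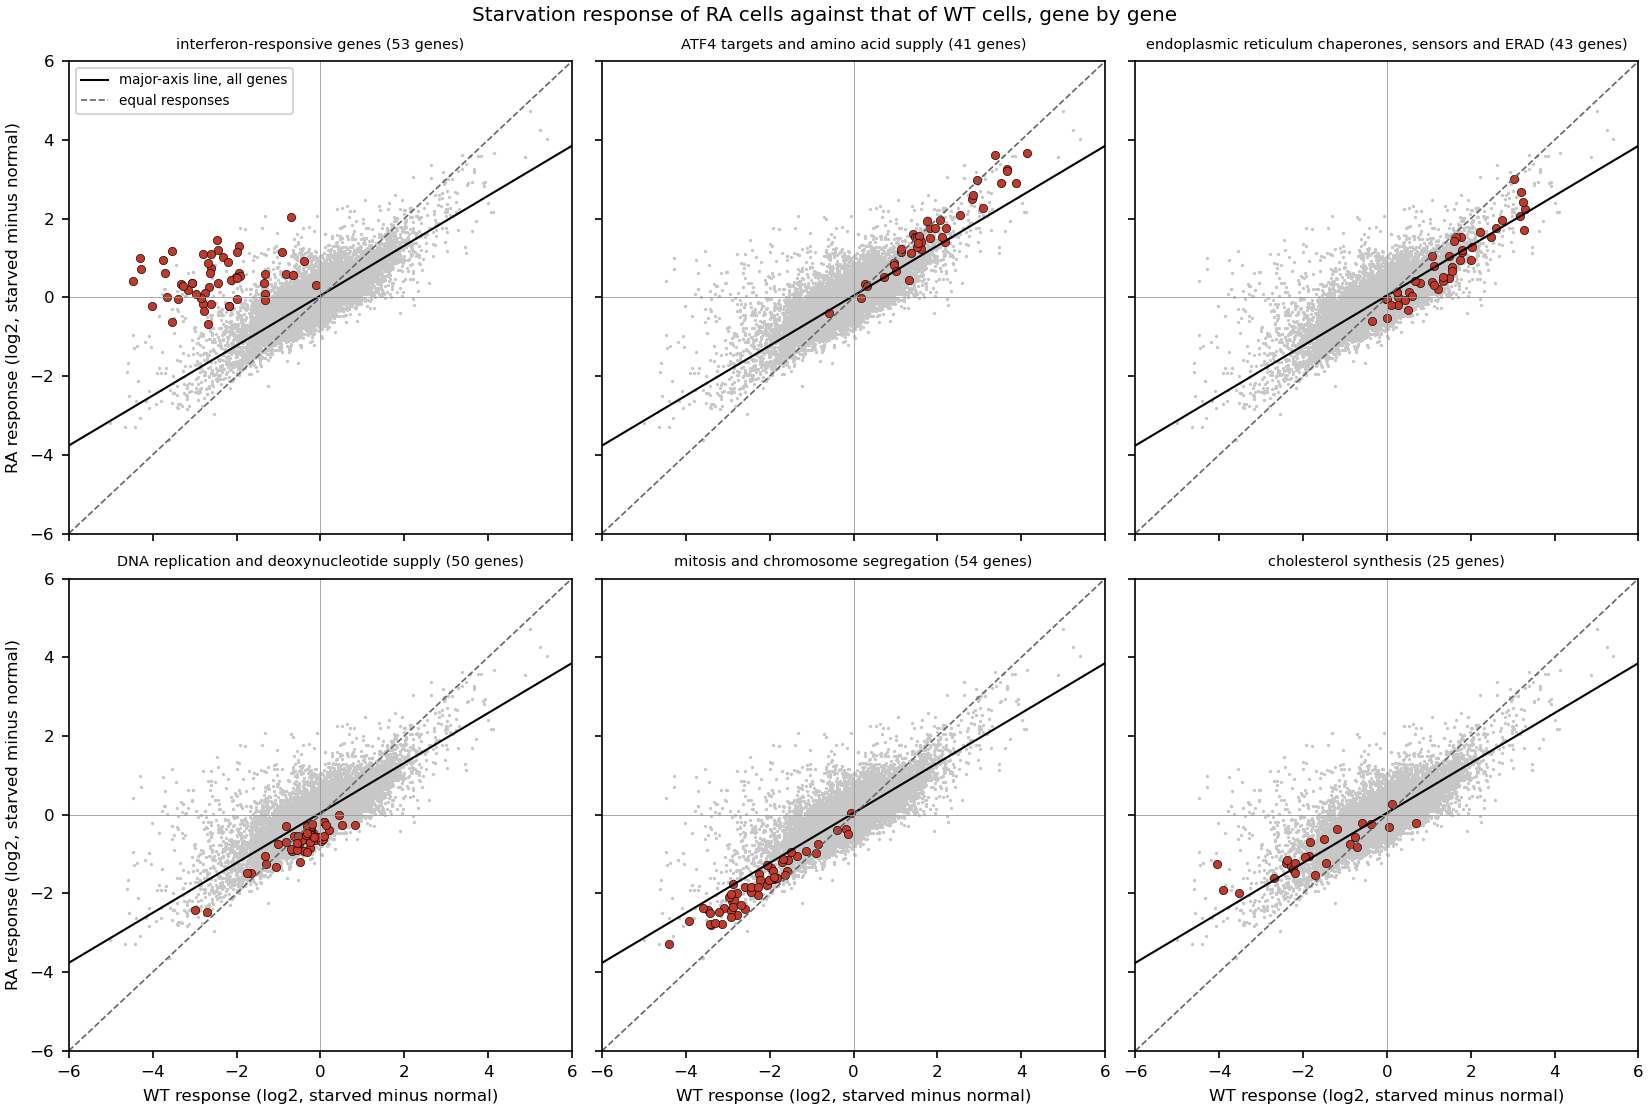
Response of RA MEFs (vertical axis) against response of WT MEFs (horizontal axis), both as log2 starved minus normal, for all 16232 tested genes in grey and the tested members of one list per panel in red. The solid line is the major axis through all genes, with a slope of 0.635, and the dashed line marks equal responses. Interferon-responsive genes lie in the upper left, ATF4 targets between the lines, and DNA replication and mitosis genes below the solid line.

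The 36 lists spread widely around the line. The highest median departures were 1.92 for interferon-responsive genes, 0.89 for MHC class I presentation, 0.80 for chemokines and cytokines, 0.46 for contractile and SRF or YAP target genes, 0.40 for ATF4 targets, and 0.38 for both collagens and matrix proteases. The lowest were -0.46 for DNA replication, -0.40 for mitosis, -0.28 for cyclins and E2F factors, -0.27 for cytosolic ribosomal proteins, -0.26 for heat shock proteins and -0.25 for proteasome subunits. A further 17 lists had medians within 0.12 of the line. When the samples numbered 1 and those numbered 2 were used apart, 34 of the 36 medians had the same sign in both. The exceptions were the circadian clock genes and the fatty acid synthesis genes, whose medians were near 0. Counts called within a list below are to be read beside the shares over all tested genes. For the departure these were 18.2% above and 27.2% below the line, and for the interaction 24.5% positive and 26.1% negative. For the response they were 39.3% raised and 39.2% lowered in WT, and 35% and 33.7% in RA. In normal medium 6.68% of the genes were higher and 2.95% lower in RA than in WT. Where a list is given below as having no member called in some direction, the count was also 0 at unadjusted p under 0.05 in limma, in edgeR and in DESeq2. The exceptions were departures above the line, with 1 DNA replication gene at unadjusted p and 1 cytosolic ribosomal protein gene in each count tool.

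**Figure D2:**
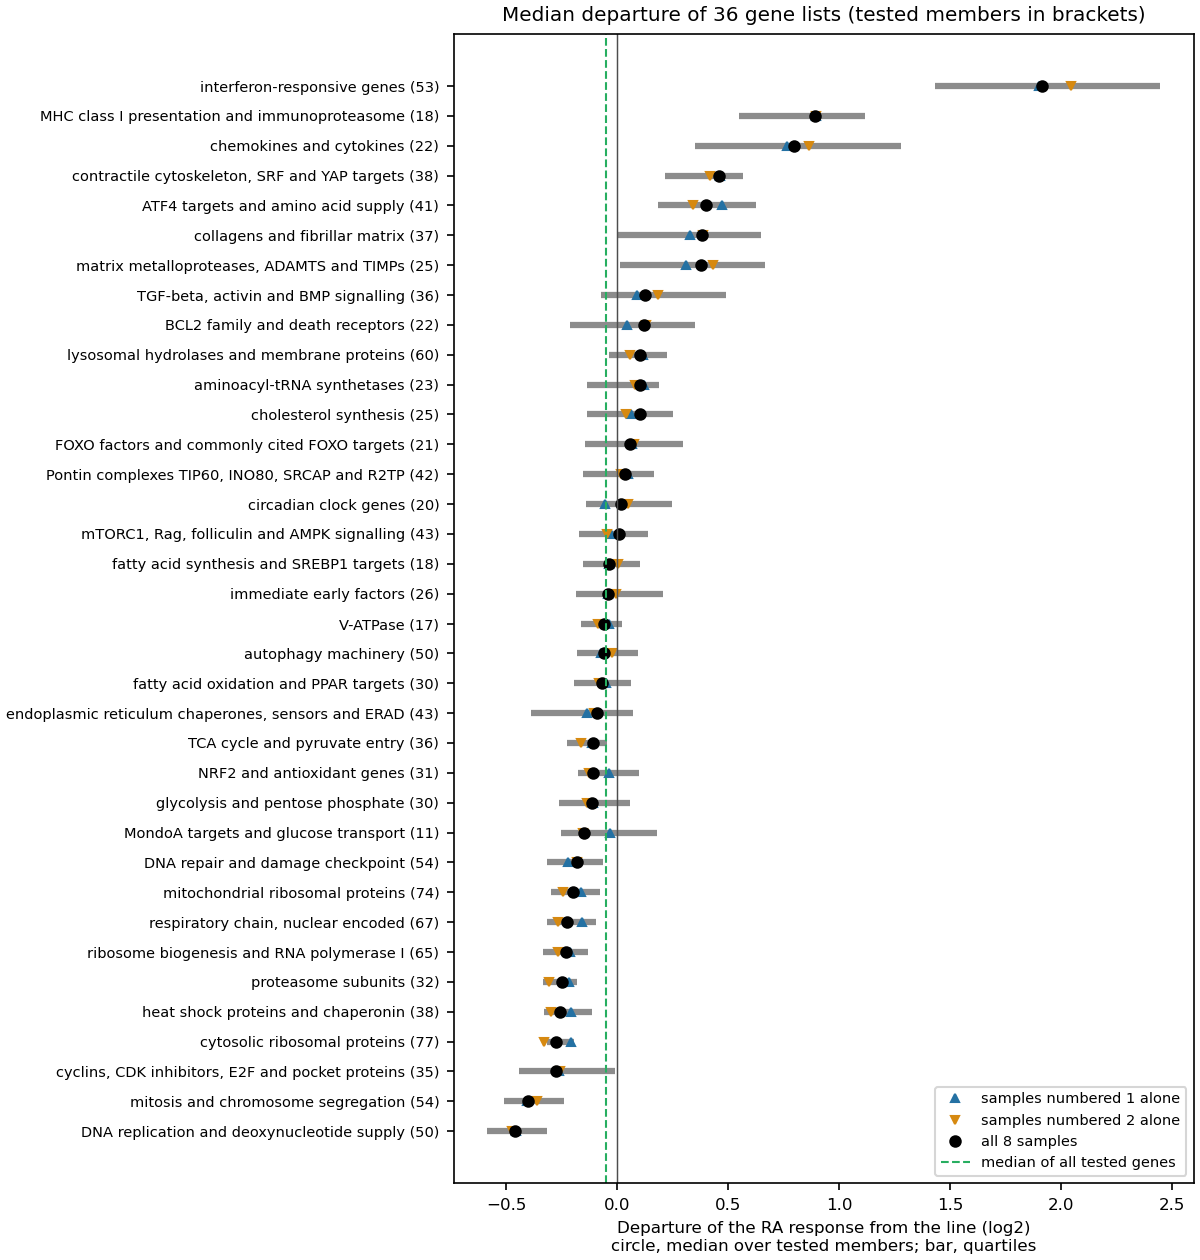
Departure of the RA response from the line (log2, horizontal axis) for each of the 36 lists. Black circles are medians over the tested members, grey bars run between the quartiles, and triangles are the medians from the samples numbered 1 or 2 alone. The interferon list stands apart at 1.92, and DNA replication is lowest at -0.46, against a median of -0.05 for all genes (dashed).

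**Figure D3:**
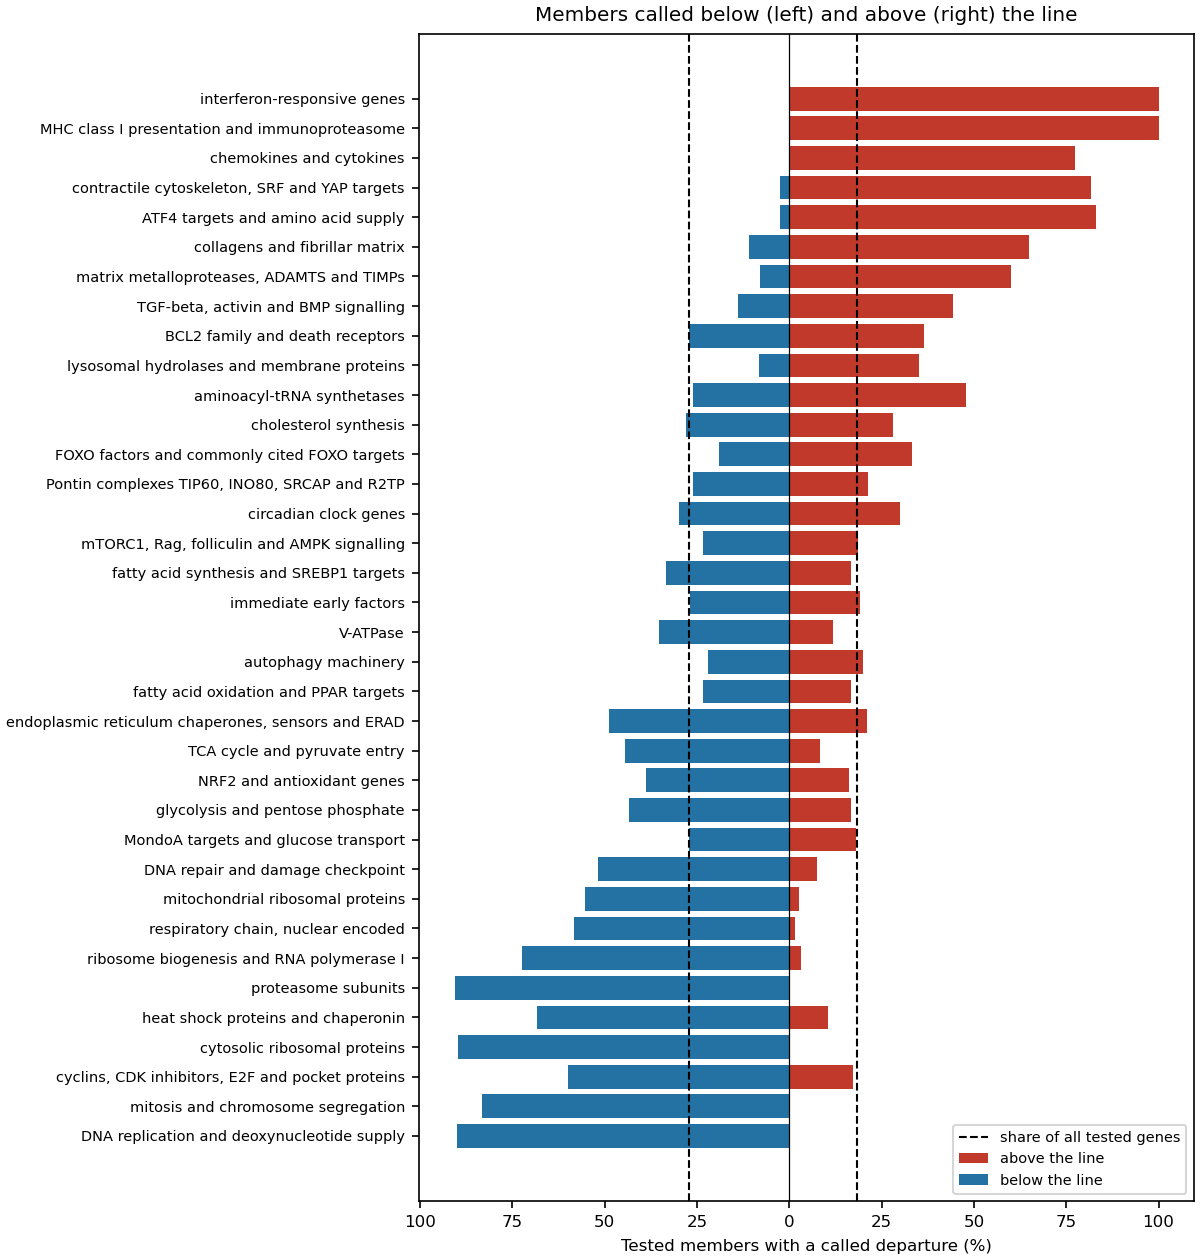
Share of the tested members of each list with a called departure (limma, BH-adjusted p under 0.05), above the line to the right and below it to the left, in percent. Dashed lines give the shares over all tested genes, 18.2% above and 27.2% below. All tested interferon and MHC class I genes were called above, and 90.6% of proteasome subunits were called below.

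Interferon-responsive genes turned from a deep fall in WT to a level or rising response in RA. These genes encode antiviral effectors that cells make when secreted interferon activates STAT factors, which bind the interferon-stimulated response element (ISRE). Averaged over the 53 members, the level was 4.90 and 4.94 in unstarved WT, 2.45 and 2.45 in starved WT, 6.11 and 6.08 in unstarved RA and 6.57 and 6.57 in starved RA. The WT samples fell together upon starvation, and every RA sample lay above every WT sample. In WT 52 of 53 members fell and none rose by limma's adjusted p, the other being Isg20, and in RA 37 rose and 6 fell. The interaction was positive for all 53, with a median of 2.91, where 24.5% of all genes were positive. The departure was above the line for all 53, where 18.2% of all genes were. Because the list was written with earlier results of these data known, these counts are not independent support. The list already differed before starvation. In normal medium 53 of 53 members were higher in RA, with a median difference of 1.10, where 6.68% of all genes were higher and 2.95% lower. Under starvation the median difference was 4.20, and 53 members were higher in RA, where 30.8% of all genes were higher and 32.1% lower.

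The letters upstream of Ifit3, the member with the highest departure, are shown because the interferon list was the farthest from the line. Ifit3 encodes an interferon-induced tetratricopeptide repeat protein that takes part in the restriction of viral RNA. Its 250 bases before the RefSeq start lay at chr19:34583279-34583528 on the plus strand of GRCm38.p6, a build other than the mm9 of the files. Capitals mark each match of the searched ISRE letters, GAAANNGAAA on either strand, which were found 2 times here, 156 to 147 and 122 to 113 bases before the start.
Ifit3 upstream: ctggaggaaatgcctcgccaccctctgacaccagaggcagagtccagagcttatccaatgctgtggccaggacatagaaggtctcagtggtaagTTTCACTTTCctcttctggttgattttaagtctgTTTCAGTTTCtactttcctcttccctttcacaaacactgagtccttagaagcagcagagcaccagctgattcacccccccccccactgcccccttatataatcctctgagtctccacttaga
These letters were held by 3.99% of all promoters in the table. Of the interferon list, 42 of 53 genes had a promoter there, under 80%, so the share within the list is void and is not given.

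Ifit3 had CPM values of 80.7 and 84.8 in unstarved WT, 3.23 and 3.34 in starved WT, 334 and 329.8 in unstarved RA and 659 and 665 in starved RA. The WT samples nearly lost its transcript upon starvation while the RA samples increased theirs, and the 4 groups did not overlap. Its response was -4.29 in WT and 0.99 in RA, and its interaction was 5.28 ± 0.06 (SE, BH-adjusted p = 3.49e-19, limma). Ifit3b, a near-identical copy that may share reads with Ifit3, gave an interaction of 4.996. Oasl2, a 2'-5' oligoadenylate synthetase-like protein, stood at 54.4 and 55.2 in WT and 157 and 170.3 in RA in normal medium, and 3.90 and 3.73 in WT and 363 and 377 in RA under starvation. Rsad2, the antiviral enzyme viperin, stood at 26.05 and 26.3 in WT and 85.5 and 79.3 in RA in normal medium, and 1.38 and 0.694 in WT and 159.8 and 162 in RA under starvation. Ifit1, which binds viral RNA, stood at 96.8 and 95.6 in WT and 270.02 and 277 in RA in normal medium, and 3.48 and 3.29 in WT and 370.4 and 366 in RA under starvation. In each of these genes the order was the same, with starved RA highest and starved WT lowest. Isg20, an exonuclease, had the lowest called departure of the list, and its interaction was 0.43 ± 0.14 (SE, BH-adjusted p = 0.0186, limma), with values of 6.04 and 7.05 in WT and 14.7 and 13.1 in RA in normal medium, and 5.64 and 6.32 in WT and 17.1 and 17.96 in RA under starvation. That call was lost without WT replicate 2 (0.33) or RA replicate 2 (0.35) of the unstarved samples, or without WT replicate 1 (0.36) or RA replicate 2 (0.40) of the starved ones, and also after quantile normalization (0.27) and with no filter on low values.

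Genes of MHC class I presentation moved in the same sense as the interferon genes but less far. The list holds class I heavy chains, peptide transporters and immunoproteasome subunits, which display peptides on the cell surface. The mean level over its 18 members was 4.70 and 4.61 in unstarved WT, 4.08 and 4.07 in starved WT, 5.37 and 5.39 in unstarved RA and 5.96 and 5.93 in starved RA. In WT 13 fell and 3 rose, where 39.2% and 39.3% of all genes did. In RA 13 rose and 1 fell, where 35% and 33.7% of all genes did. Opposite directions were seen in 8 members, beside 4.76% of all genes. All 18 interactions and all 18 departures were called positive. In normal medium 17 members were already higher in RA, where 6.68% of all genes were. H2-T23, a non-classical class I heavy chain, stood at 21.1 and 18.8 in WT and 39.2 and 40.01 in RA in normal medium, and 13.98 and 13.1 in WT and 105 and 106 in RA under starvation. Its interaction was 1.92 ± 0.09 (SE, BH-adjusted p = 1.65e-11, limma). Class I genes are close in sequence to one another, so reads may have been split among them. Psmb10, an immunoproteasome subunit, was at the other end, with an interaction of 0.38 ± 0.11 (SE, BH-adjusted p = 0.00881, limma), a call that was lost without WT replicate 1 in normal medium (0.27), without RA replicate 1 under starvation (0.32), after quantile normalization (0.26) and with no filter on low values.

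Chemokines and cytokines fell in WT and were partly retained or raised in RA. Of 31 listed genes 22 passed the filter on low values. In WT 17 fell and 2 rose, where 39.2% and 39.3% of all genes did. In RA 11 rose and 8 fell, where 35% and 33.7% of all genes did. The interaction was positive for 17 and negative for none, where 24.5% and 26.1% of all genes were. The list already differed before starvation. In normal medium 11 members were higher in RA and none lower, where 6.68% and 2.95% of all genes were, and the median difference was 0.24. Under starvation all 22 were higher in RA, where 30.8% of all genes were. The median departure of 0.80 became 0.52 with no filter on low values. Ccl2, which attracts monocytes, stood at 143 and 153 in unstarved WT, 11.02 and 9.68 in starved WT, 193 and 189.8 in unstarved RA and 226 and 220.2 in starved RA. Its WT samples fell steeply and its RA samples rose a little. Its interaction was 3.94 ± 0.07 (SE, BH-adjusted p = 1.7e-16, limma). Cxcl12, the ligand of CXCR4, fell in both lines, with responses of -1.48 in WT and -0.73 in RA, and its interaction was 0.76 ± 0.06 (SE, BH-adjusted p = 8.43e-09, limma). Summed immune markers were 13.4 to 14.2 CPM in unstarved WT, 24.2 to 25.2 in starved WT, 16.4 to 17.7 in unstarved RA and 21.3 to 21.9 in starved RA, mostly from Csf1r. Ptprc, the common leukocyte antigen, was at 0 in every sample but 1 starved RA sample, at 0.0392 CPM.

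**Figure D4:**
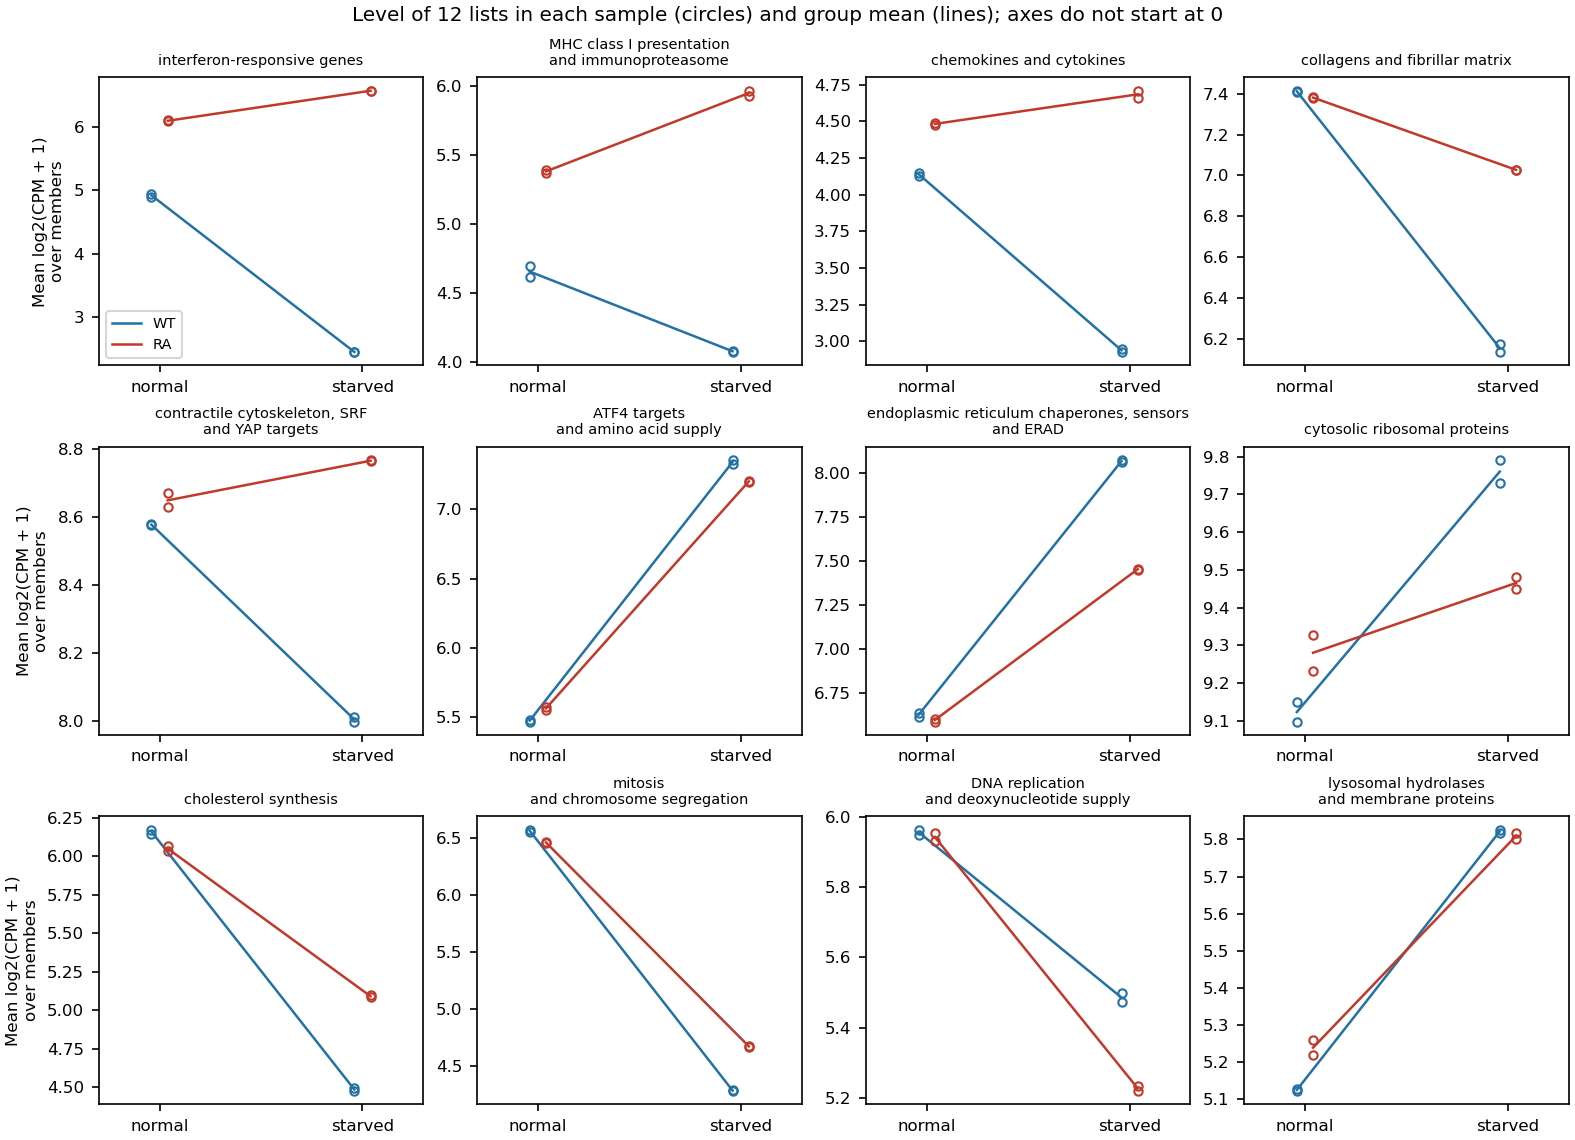
Mean log2(CPM + 1) over the tested members of 12 lists (vertical axes, which do not start at 0) in normal medium and under starvation. Circles are the 8 samples, and lines join the group means of WT (blue) and RA (red). WT falls from 4.92 to 2.45 in the interferon panel while RA rises from 6.10 to 6.57, and in the ATF4 panel the lines run nearly together.

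Matrix and contractile genes fell upon starvation in WT, and most of them lay above the line in RA. Fibroblasts secrete collagens and shape them with proteases, and SRF and YAP are factors that raise contractile genes when the actin cytoskeleton is under tension. Collagens and other fibrillar matrix genes had median responses of -1.33 in WT and -0.25 in RA, and the mean level over 37 members was 7.41 and 7.41 in unstarved WT, 6.18 and 6.14 in starved WT, 7.38 and 7.38 in unstarved RA and 7.03 and 7.03 in starved RA. The interaction was called 30 positive and 3 negative, and the departure 24 above and 4 below the line. Matrix proteases and their inhibitors had medians of -0.94 in WT and -0.20 in RA, with 15 above and 2 below the line among 25 tested. Their median departure of 0.38 became 0.21 with no filter on low values and 0.24 with a least squares line. Contractile genes had medians of -0.50 in WT and 0.10 in RA, with 31 above and 1 below the line among 38 tested, and 12 members moved in opposite directions. TGF-beta, activin and BMP genes had medians of -0.45 in WT and -0.05 in RA, with 16 above and 5 below the line among 36 tested. In WT 28 of 37 collagen genes and 30 of 38 contractile genes fell, against 21 and 13 in RA, where 19 contractile genes rose. Of all genes, 39.2% fell in WT, 33.7% fell and 35% rose in RA, and 4.76% moved in opposite directions. Their interaction was positive for 24.5% and negative for 26.1%, and their departure above the line for 18.2% and below for 27.2%.

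Members of these lists did not all behave alike. Col5a3, a chain of type V collagen, stood at 14.6 and 14.3 in WT and 15.2 and 13.99 in RA in normal medium, and 5.11 and 5.19 in WT and 24.9 and 24.1 in RA under starvation, falling in WT and rising in RA. Its interaction was 2.04 ± 0.11 (SE, BH-adjusted p = 2.83e-10, limma). Postn, the matricellular protein periostin, fell further in RA than in WT, with responses of -0.30 in WT and -0.62 in RA and an interaction of -0.32 ± 0.05 (SE, BH-adjusted p = 9.06e-05, limma). Adam19, a membrane-bound protease, stood at 45.6 and 45.9 in WT and 47.2 and 48.8 in RA in normal medium, and 8.38 and 7.27 in WT and 38.6 and 36.8 in RA under starvation and gave an interaction of 2.07. Adamts1, which cleaves proteoglycans, had responses of -2.74 in WT and -1.90 in RA and lay below the line at -0.21. Ankrd1, a target of YAP, stood at 576 and 579.97 in WT and 654 and 655 in RA in normal medium, and 138 and 139 in WT and 641 and 646 in RA under starvation. Its WT samples fell steeply, its RA response of -0.03 was not called, and its interaction was 2.03 ± 0.05 (SE, BH-adjusted p = 4e-15, limma). Tagln2, an actin-binding protein, fell in both lines with responses of -1.60 in WT and -1.20 in RA. Tgfb3, a secreted ligand, gave an interaction of 1.79 ± 0.09 (SE, BH-adjusted p = 1.13e-10, limma), and Id2, a helix-loop-helix protein induced by BMP, one of -0.78 ± 0.09 (SE, BH-adjusted p = 1.9e-06, limma). The fibroblast marker sums given above moved with these lists, and several markers, such as Col1a1 and Col1a2, are members of the collagen list. Their part in the result was not tested.

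ATF4 targets rose in both lines and lay above the line in RA. ATF4 is translated when amino acids are short or the endoplasmic reticulum is stressed, and it drives genes for amino acid synthesis and uptake. The 41 members had a mean level of 5.48 and 5.47 in unstarved WT, 7.33 and 7.36 in starved WT, 5.55 and 5.58 in unstarved RA and 7.21 and 7.20 in starved RA. In both lines 39 of 41 rose, with median responses of 1.60 in WT and 1.54 in RA, and the called departures were 34 above and 1 below the line. The interaction was nevertheless more often negative, with 4 positive and 23 negative. Of the members, 24 had a significantly smaller response of the same direction in RA. Most members still lay above the line, but Shmt1, 1 of these 24, lay below it at -0.44. Relative to genes with a similar mean response, the median departure was 0.22 in place of 0.40. Trib3, a pseudokinase induced by ATF4, stood at 21.4 and 20.4 in WT and 27.3 and 26.8 in RA in normal medium, and 221 and 232 in WT and 347 and 339.8 in RA under starvation. Starved and normal samples were far apart in both lines, and the interaction was 0.24 ± 0.06 (SE, BH-adjusted p = 0.00407, limma). Shmt1, a serine hydroxymethyltransferase, was the lowest member, with responses of 1.33 in WT and 0.44 in RA and an interaction of -0.88 ± 0.09 (SE, BH-adjusted p = 5.49e-07, limma). Aminoacyl-tRNA synthetases, several of which ATF4 induces, had medians of 0.48 in WT and 0.39 in RA, with 11 above and 6 below the line among 23 tested. Lars, which charges leucine, rose with responses of 0.48 in WT and 0.87 in RA, whereas Kars, which charges lysine, fell in RA with a response of -0.37 and stood at 0.08 in WT.

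Endoplasmic reticulum genes rose in both lines but less in RA, with a median near the line and more members below it than above. Over 43 chaperones, stress sensors and degradation factors the mean level was 6.62 and 6.64 in unstarved WT, 8.06 and 8.08 in starved WT, 6.59 and 6.60 in unstarved RA and 7.45 and 7.46 in starved RA. The lines were close in normal medium and apart under starvation, where 41 of 43 members were lower in RA and none higher, beside 32.1% and 30.8% of all genes. The interaction was called 0 positive and 35 negative, where 24.5% and 26.1% of all genes were. The departures were 9 above and 21 below the line, or 20.9% and 48.8%, where 18.2% and 27.2% of all genes were, around a median of -0.09. Among genes with a similar mean response the median was lower, at -0.30. Its members differed widely. Herpud1, a factor of ER-associated degradation, stood at 86.8 and 90.9 in WT and 72.2 and 75.8 in RA in normal medium, and 739 and 737 in WT and 614 and 598 in RA under starvation. Its rise was 3.04 in WT and 3.02 in RA, with an interaction of -0.02 ± 0.06 (SE, BH-adjusted p = 0.772, limma), so its response differed by less than the error of the fit. P4hb, the protein disulfide isomerase that folds secreted proteins, stood at 873 and 861 in WT and 848 and 876 in RA in normal medium, and 1232 and 1236 in WT and 694 and 685 in RA under starvation. It rose in WT and fell in RA, and its interaction was -0.83 ± 0.05 (SE, BH-adjusted p = 1.92e-09, limma). Cytosolic heat shock proteins and the chaperonin had medians of 0.03 in WT and -0.23 in RA, of which the WT value changed sign under quantile or total-read scaling, and 4 above and 26 below the line among 38 tested. Their median departure of -0.26 became -0.13 among genes of the same level class and -0.15 after quantile normalization. Dnajb1, a co-chaperone of HSP70, stood at 70.5 and 69.4 in WT and 77.03 and 72.7 in RA in normal medium, and 99.6 and 94.3 in WT and 62.03 and 61.6 in RA under starvation, and its interaction was -0.74 ± 0.06 (SE, BH-adjusted p = 7.8e-08, limma). Cryab, a small heat shock protein, went the other way, with an interaction of 1.42 ± 0.09 (SE, BH-adjusted p = 2.03e-09, limma).

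**Figure D5:**
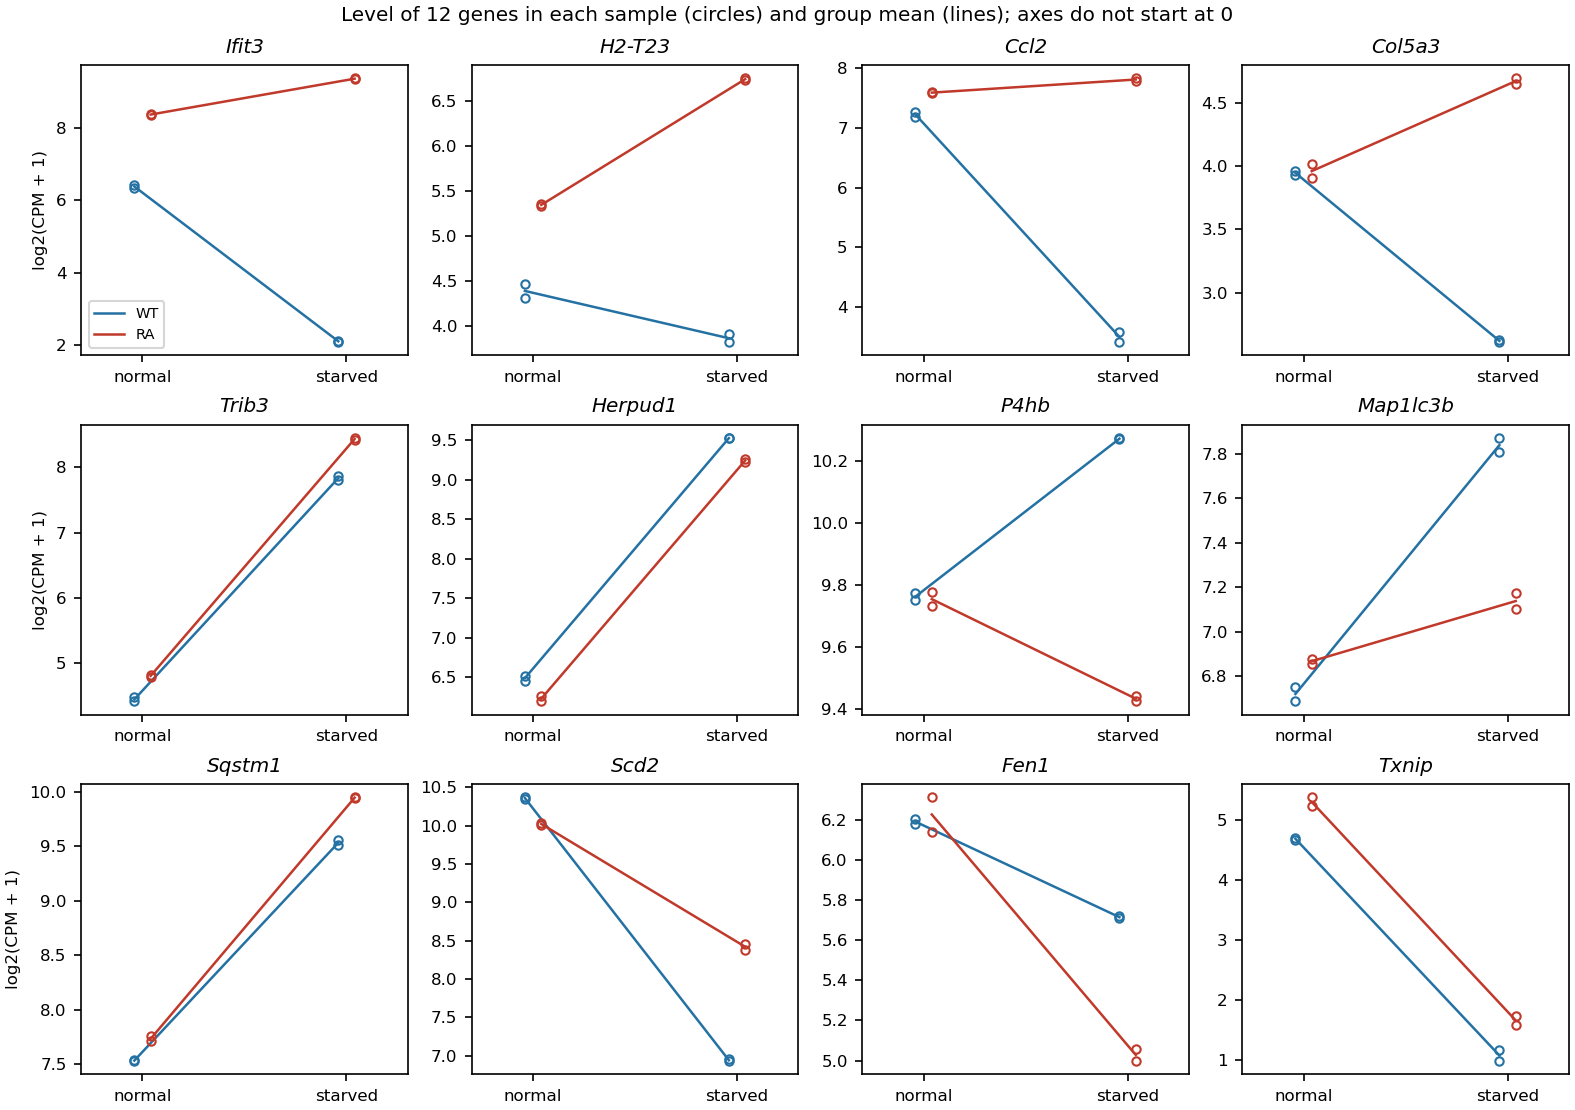
Level of 12 genes as log2(CPM + 1) (vertical axes, which do not start at 0) in normal medium and under starvation. Circles are the 8 samples and lines join group means of WT (blue) and RA (red). Trib3, Herpud1 and Txnip run nearly parallel in both lines, P4hb and Col5a3 move in opposite directions, and Map1lc3b rises far less in RA.

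Autophagy genes rose in both lines and lay near the line as a group. Autophagy wraps cytoplasm in a membrane and delivers it to lysosomes, and it is the process the study was about. The mean level over 50 genes of the machinery was 4.97 and 4.98 in unstarved WT, 5.74 and 5.75 in starved WT, 5.05 and 5.03 in unstarved RA and 5.58 and 5.58 in starved RA. In each line 41 rose, and the interaction was called 7 positive and 25 negative, or 14% and 50%, beside 24.5% and 26.1% over all genes. The called departures were 10 above and 11 below the line, shares of 20% and 22% beside 18.2% and 27.2% over all genes. The median departure was -0.06, and it crossed 0 with a least squares line. Genes inside the list differed by more than that. Map1lc3b, which encodes the LC3B protein of the autophagosome membrane, stood at 102 and 107 in unstarved WT, 223 and 233 in starved WT, 115 and 117 in unstarved RA and 143 and 136 in starved RA. It rose in WT by 1.12 and in RA by 0.27, and its interaction was -0.85 ± 0.06 (SE, BH-adjusted p = 4.56e-09, limma). Sqstm1, the cargo receptor p62, stood at 184 and 184 in unstarved WT, 727 and 752 in starved WT, 208 and 215 in unstarved RA and 987 and 984 in starved RA. It rose further in RA, with an interaction of 0.21 ± 0.05 (SE, BH-adjusted p = 0.00246, limma). These genes held the lowest and the highest called departure of the list, -0.48 and 0.90.

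The bases upstream of Map1lc3b are shown because it was the autophagy gene farthest below the line. They lay at chr8:121590188-121590360 on the plus strand of GRCm38.p6, the first 173 bases of the RefSeq window, up to the first transcript start in GENCODE M21.
Map1lc3b upstream: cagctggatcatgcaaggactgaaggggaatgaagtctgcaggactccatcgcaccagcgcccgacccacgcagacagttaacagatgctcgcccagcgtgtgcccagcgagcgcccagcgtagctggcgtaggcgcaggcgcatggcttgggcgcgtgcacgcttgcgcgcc
None of the searched motifs was in this window, so it has no capitals. This says only that those letters are absent from these bases.

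Lysosomal and nutrient-sensing lists had medians near the line. Lysosomal hydrolases and membrane proteins had median responses of 0.68 in WT and 0.58 in RA, with 21 above and 5 below the line among 60 tested, or 35% and 8.33%, beside 18.2% and 27.2% over all genes. Their median departure of 0.10 became 0.19 among genes of the same level class, 0.18 with a least squares line and 0.06 without RA replicate 1 in normal medium. Naglu, which degrades heparan sulfate, stood at 7.37 and 7.62 in WT and 8.41 and 8.84 in RA in normal medium, and 12.8 and 12.2 in WT and 19.7 and 18.3 in RA under starvation and gave an interaction of 0.39 ± 0.12 (SE, BH-adjusted p = 0.014, limma), a call that was lost without RA replicate 1 under starvation (0.34) and after quantile normalization (0.24). Hyal2, a hyaluronidase, gave one of -0.59 ± 0.09 (SE, BH-adjusted p = 5.69e-05, limma). Subunits of the V-ATPase, the pump that acidifies lysosomes, had medians of 0.96 in WT and 0.64 in RA, and the interaction was called 2 positive and 14 negative among 17 tested. The departure of this list was -0.06 and changed sign under quantile normalization. Atp6ap1, an accessory subunit, rose in both lines with responses of 0.87 in WT and 0.24 in RA, while Atp6v0a1, a membrane subunit, rose in RA by 0.58 and had a response of -0.07 in WT.

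FOXO factors and their commonly cited targets had medians of 0.18 in WT and 0.08 in RA and departures of 7 above and 4 below the line, of 21 tested, or 33.3% and 19.05% beside 18.2% and 27.2% over all genes. FOXO factors enter the nucleus when growth factor signalling is low and raise genes of autophagy and cell cycle exit. Ccng2, an unconventional cyclin, stood at 10.3 and 9.47 in WT and 9.29 and 8.64 in RA in normal medium, and 26.6 and 27.3 in WT and 10.9 and 9.29 in RA under starvation, and its interaction was -1.21 ± 0.13 (SE, BH-adjusted p = 8.98e-07, limma). Its WT samples rose, and its RA response of 0.15 was not called. Klf2, a zinc finger factor, stood at 13.002 and 14.3 in WT and 17.4 and 19.4 in RA in normal medium, and 4.57 and 5.85 in WT and 31.4 and 32.2 in RA under starvation, and its interaction was 2.002 ± 0.14 (SE, BH-adjusted p = 4.18e-09, limma). The mTORC1, Rag, folliculin and AMPK genes had medians of 0.34 in WT and 0.22 in RA and 8 above and 10 below the line among 43 tested, shares of 18.6% and 23.3% that are near those of all genes. Sesn2, a leucine sensor that restrains mTORC1, had responses of 1.69 in WT and 1.86 in RA and an interaction of 0.17 that was not called with all 8 samples and was called without RA replicate 2 in normal medium (0.23) and with total-read scaling (0.23). Stk11, the kinase LKB1 upstream of AMPK, fell further in RA, with an interaction of -0.45 ± 0.06 (SE, BH-adjusted p = 1.6e-05, limma). Proteasome subunits fell in both lines, with medians of -0.46 in WT and -0.50 in RA, and 29 of 32 lay below the line and none above. Their median departure was -0.25, and it was -0.12 among genes of the same level class and -0.14 after quantile normalization. Psma7, a core subunit, gave responses of -0.70 in WT and -0.91 in RA. Its interaction of -0.21 lost its call after quantile normalization (-0.11), with total reads (-0.14) and without RA replicate 2 under starvation (-0.17). Psmd8, a subunit of the regulatory particle, rose with responses of 0.45 in WT and 0.21 in RA.

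Cholesterol synthesis genes fell in both lines and fell less in RA, close to the line. SREBP2 raises these genes when membrane sterol is low. Over the 25 members the mean level was 6.14 and 6.17 in unstarved WT, 4.49 and 4.47 in starved WT, 6.03 and 6.06 in unstarved RA and 5.10 and 5.08 in starved RA. In each line 22 fell, and 18 of 25 moved the same way in both lines and significantly less in RA. The departures were 7 above and 7 below the line, or 28% each, beside 18.2% and 27.2% over all genes. Their median of 0.10 became -0.07 with a least squares line and 0.04 with a pseudocount of 0.1. It was 0.05 without WT replicate 2 under starvation and 0.19 among genes of similar mean response. Ebp, a sterol isomerase, had the lowest called departure, -0.71 ± 0.18 (SE, BH-adjusted p = 0.00399, limma), with values of 13.4 and 19.7 in WT and 14.8 and 21.8 in RA in normal medium, and 25.6 and 28.7 in WT and 14.8 and 15.9 in RA under starvation. The pairs of samples in normal medium differed more than those under starvation. Fatty acid synthesis genes had medians of -0.61 in WT and -0.41 in RA and 3 above and 6 below the line among 18 tested. These shares of 16.7% and 33.3% are near those of all genes. Scd2, a stearoyl-CoA desaturase, stood at 1305 and 1320.0 in WT and 1033 and 1045 in RA in normal medium, and 123 and 121 in WT and 333 and 351 in RA under starvation, with an interaction of 1.82 ± 0.05 (SE, BH-adjusted p = 4.89e-14, limma). Fads2, another desaturase, fell in both lines, with responses of -1.71 in WT and -1.64 in RA and an interaction of 0.07 ± 0.08 (SE, BH-adjusted p = 0.507, limma).

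Lists of glucose and mitochondrial metabolism had medians below the line, in part by small amounts that depended on the processing. Over all genes 18.2% lay above and 27.2% below the line. Glycolysis and pentose phosphate genes had 5 above and 13 below among 30 tested, or 16.7% and 43.3%, with a median of -0.12. The TCA cycle genes had 3 above and 16 below among 36 tested, or 8.33% and 44.4%, with a median of -0.11. Among genes of the same level class these medians were -0.01 and -0.03, and after quantile normalization -0.06 and -0.04. Pfkfb4, which makes the activator of phosphofructokinase, stood at 29.05 and 27.4 in WT and 29.95 and 29.5 in RA in normal medium, and 9.32 and 9.35 in WT and 25.7 and 24.7 in RA under starvation, and its interaction was 1.27 ± 0.09 (SE, BH-adjusted p = 9.59e-09, limma). Pgam1, phosphoglycerate mutase, fell further in RA, with responses of -0.46 in WT and -0.74 in RA. Txnip, an inhibitor of glucose uptake that MondoA expresses when glucose is present, stood at 24.9 and 24.5 in WT and 40.4 and 36.3 in RA in normal medium, and 1.26 and 0.987 in WT and 1.998 and 2.35 in RA under starvation. It fell in both lines, with responses of -3.60 in WT and -3.63 in RA and an interaction of -0.03 ± 0.15 (SE, BH-adjusted p = 0.886, limma), and it lay below the line at -1.39. Slc2a1, the glucose transporter GLUT1, rose further in RA, with responses of 0.89 in WT and 1.19 in RA and an interaction of 0.29 ± 0.05 (SE, BH-adjusted p = 0.000179, limma). Of the genes on the MondoA and glucose transport list, 11 of 13 were tested, and their interaction median was 0.03, which turned negative under quantile normalization. Fatty acid oxidation genes had 5 above and 7 below the line among 30 tested, shares of 16.7% and 23.3% that are near the 18.2% and 27.2% of all genes. Acot2, a mitochondrial thioesterase, had responses of 3.84 in WT and 3.58 in RA. Eci1, an enoyl-CoA isomerase, rose by 0.68 in WT against a response of -0.03 in RA. Nuclear-encoded respiratory chain genes had medians of -0.03 in WT and -0.19 in RA and 1 above and 39 below the line among 67 tested, and a median departure of -0.23 that became -0.11 among genes of the same level class and -0.14 after quantile normalization. Ndufb10, a subunit of complex I, stood at 38.4 and 40.9 in WT and 43.3 and 45.7 in RA in normal medium, and 56.5 and 60.7 in WT and 36.4 and 37.3 in RA under starvation, and its interaction was -0.81 ± 0.08 (SE, BH-adjusted p = 2.33e-07, limma), while Ndufb2, another subunit, gave 0.58. NRF2 and antioxidant genes had 5 above and 12 below the line among 31 tested, or 16.1% and 38.7%. Interactions were 0.97 for Nqo1, a quinone reductase, and -0.28 for the peroxidase Prdx2.

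Cytosolic ribosomal protein genes rose in WT, rose less in RA and lay below the line. Their mean level over 77 members was 9.10 and 9.15 in unstarved WT, 9.73 and 9.79 in starved WT, 9.23 and 9.33 in unstarved RA and 9.48 and 9.45 in starved RA. In WT 76 of 77 rose, in RA 52 rose and 3 fell, and the interaction was negative for 76 and positive for none. The departures were 0 above and 69 below the line, with a median of -0.27, or -0.13 among genes of the same level class and -0.17 after quantile normalization. In normal medium 42 members were called slightly higher in RA, where 6.68% of all genes were higher and 2.95% lower. The median difference over all 77 members was 0.15. Rps25, a protein of the small subunit, stood at 440.4 and 488 in WT and 487 and 557 in RA in normal medium, and 650.2 and 707 in WT and 462 and 480.03 in RA under starvation, and its interaction was -0.69 ± 0.08 (SE, BH-adjusted p = 3.92e-06, limma). Rpl17, of the large subunit, had responses of 1.02 in WT and 0.55 in RA. Many ribosomal protein genes have processed copies that may share reads. Ribosome biogenesis and RNA polymerase I genes had medians of 0.27 in WT and -0.06 in RA, with 2 above and 47 below the line among 65 tested, and mitochondrial ribosomal proteins had medians of 0.17 in WT and -0.03 in RA, with 2 above and 41 below the line among 74 tested. Among genes of the same level class their median departures went from -0.23 to -0.12 and from -0.20 to -0.12. Nop10, a component of the RNA-guided pseudouridylation complex, fell further in RA, with an interaction of -0.62 ± 0.09 (SE, BH-adjusted p = 2.19e-05, limma). Taf1a, a subunit of a factor that recruits RNA polymerase I, gave one of 0.63 ± 0.11 (SE, BH-adjusted p = 0.000179, limma).

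DNA replication genes fell further in RA than in WT, against the general weakening. The list holds the replicative helicase, polymerases, clamp loader and enzymes of deoxynucleotide supply. Its mean level over 50 members was 5.95 and 5.96 in unstarved WT, 5.47 and 5.50 in starved WT, 5.93 and 5.95 in unstarved RA and 5.24 and 5.22 in starved RA. The lines were close in normal medium, and under starvation both RA samples lay below both WT samples. In WT 37 of 50 fell and 6 rose, and in RA 49 fell and none rose. The interaction was called 4 positive and 33 negative, and 20 members, 40.0%, moved the same way in both lines and further in RA, a class that held 4.05% of all genes. The departures were 0 above and 45 below the line, with a median of -0.46, or -0.36 among genes of similar mean response. Fen1, a flap endonuclease, stood at 71.4 and 72.7 in WT and 69.6 and 78.5 in RA in normal medium, and 51.8 and 51.3 in WT and 30.9 and 32.3 in RA under starvation. Its starved RA samples were the lowest, and its interaction was -0.72 ± 0.08 (SE, BH-adjusted p = 8.89e-07, limma). Rfc1, the large subunit of the clamp loader, fell in both lines, with responses of -0.32 in WT and -0.29 in RA.

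Mitosis genes fell deeply in both lines and somewhat less in RA, though not by as much as the line gave. Across the 54 members the mean level was 6.55 and 6.58 in unstarved WT, 4.28 and 4.29 in starved WT, 6.46 and 6.47 in unstarved RA and 4.67 and 4.68 in starved RA. In WT 52 and in RA 53 of 54 fell, and the interaction was called 44 positive and 1 negative, so that 44 members fell significantly less in RA. The departures were nevertheless 0 above and 45 below the line, with a median of -0.40, or -0.20 among genes of similar mean response. DNA replication and mitosis thus had opposite signs of the interaction and the same sign of the departure. Cdc20, an activator of the anaphase-promoting complex, stood at 161 and 161 in WT and 144 and 156 in RA in normal medium, and 22.8 and 22.5 in WT and 25.1 and 24.1 in RA under starvation, and its departure was -0.84 ± 0.06 (SE, BH-adjusted p = 6.15e-09, limma). Its interaction of 0.22 lost its call without RA replicate 1 in normal medium (0.16) or under starvation (0.19). Anln, the cytokinesis protein anillin, gave responses of -1.96 in WT and -1.35 in RA. Cyclins, CDK inhibitors and E2F factors had 6 above and 21 below the line among 35 tested, or 17.1% and 60%, beside 18.2% and 27.2% over all genes. Cdkn1a, the CDK inhibitor p21, stood at 9.87 and 10.3 in WT and 9.10 and 10.1 in RA in normal medium, and 18.4 and 22.9 in WT and 28.9 and 28.6 in RA under starvation, and rose further in RA, with an interaction of 0.53 ± 0.13 (SE, BH-adjusted p = 0.00309, limma). Mxd4, which opposes MYC, fell further in RA, with responses of -0.20 in WT and -0.92 in RA. DNA repair and checkpoint genes had 4 above and 28 below the line among 54 tested, or 7.41% and 51.9%. Ung, a uracil glycosylase, stood at 10.4 and 9.74 in WT and 11.5 and 11.5 in RA in normal medium, and 18.5 and 19.7 in WT and 8.23 and 6.28 in RA under starvation, and its interaction was -1.47 ± 0.15 (SE, BH-adjusted p = 4e-07, limma). Nbn, of the break-sensing complex, gave one of 0.89 ± 0.08 (SE, BH-adjusted p = 1.89e-07, limma).

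The remaining lists held members on both sides of the line, with medians of -0.04 for the immediate early factors, 0.02 for the clock genes, 0.12 for the BCL2 family (0.06 without RA replicate 2 in normal medium, and 0.08 without WT replicate 2 under starvation) and 0.03 for the complexes that hold Pontin. These were the immediate early factors with 5 above and 7 below the line among 26 tested (19.2% and 26.9%), and the circadian clock genes with 6 and 6 among 20 (30% each). The BCL2 family and death receptors had 8 above and 6 below among 22 tested (36.4% and 27.3%). The complexes that hold Pontin had 9 above and 11 below among 42 tested (21.4% and 26.2%). Over all genes the shares were 18.2% and 27.2%, so the immediate early factors and Pontin complexes were near those of all genes. Kat5, the acetyltransferase of the TIP60 complex, stood at 43.7 and 39.8 in WT and 39.9 and 43.2 in RA in normal medium, and 31.4 and 34.4 in WT and 48.5 and 49.1 in RA under starvation, and its interaction was 0.56 ± 0.09 (SE, BH-adjusted p = 4.93e-05, limma). Uchl5, a deubiquitinase found in INO80, gave one of -0.50 ± 0.08 (SE, BH-adjusted p = 6.29e-05, limma). Dusp1, a MAP kinase phosphatase, fell in WT and rose in RA, with responses of -0.22 in WT and 0.72 in RA, whereas Jun fell in both, with -0.97 in WT and -1.06 in RA. Bhlhe40, a repressor of the clock, rose further in RA, with an interaction of 0.48 ± 0.07 (SE, BH-adjusted p = 3.64e-05, limma), and Csnk1e, a clock kinase, gave -0.31. Birc3, an inhibitor of apoptosis, gave 1.08, and Apaf1, the scaffold of the apoptosome, -0.54.

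Over all tested genes with a mean of at least 10 CPM, the highest called departures were those of Ifit3, Ifit3b, Oasl2, Rsad2 and Ifit1, from 3.22 to 3.67. The lowest were those of Cd24a, Txnip, Hmgb3, Pcolce2 and Gm15441. Cd24a, a surface glycoprotein, stood at 189 and 186 in WT and 164 and 171 in RA in normal medium, and 75.9 and 82.2 in WT and 34.2 and 35.5 in RA under starvation, and its departure was -1.49 ± 0.05 (SE, BH-adjusted p = 1.5e-12, limma). Hmgb3, a chromatin protein, had responses of -2.54 in WT and -2.95 in RA, and Pcolce2, an enhancer of procollagen processing, had -0.53 in WT and -1.67 in RA. These 3 genes fell further in RA. Gm15441 lies on the strand opposite Txnip, and their values were nearly equal in every sample, so their reads cannot be told apart without strand. In GENCODE M21, 78.8% of the exon bases of Fen1 also overlap Gm10143, 17.2% of those of Rps25 overlap Trappc4 and 12.1% of those of Kat5 overlap Rnaseh2c, all on opposite strands, and their values are uncertain to that extent.

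Promoter letters were compared for the lists in which at least 80% of the genes had a RefSeq window, which ran from 250 bases before to 50 after a start. All promoters means those of 27025 genes, whether tested here or not. A list of targets of a factor, such as the ATF4 list, can hold its letters through how it was chosen. Such shares are therefore descriptive. The ATF4 element TGATGCAA, searched on both strands, was in 9 of 35 (25.7%) of the ATF4 target promoters, against 1.03% of all promoters. The endoplasmic reticulum stress element, CCAAT and CCACG with 9 bases between them, was in 9 of 36 (25%) of the endoplasmic reticulum promoters, against 0.137%. The E-box CACGTGA was in 13 of 48 (27.1%) of the lysosomal promoters and 4 of 40 (10%) of the autophagy promoters, against 4.29%. Its share was above that of autophagy in other lists compared, such as the clock genes (16.7%), the mTORC1 and AMPK genes (15%) and the FOXO list (14.3%). In others it was lower, such as the ATF4 targets, with 0 of 35. The E2F letters TTTCCCGC were in 7 of 41 (17.1%) of the DNA replication promoters, against 1.24%. The ISRE letters given above were in 5 of 15 (33.3%) of the MHC class I promoters, against 3.99%. The FOXO letters GTAAACA were in 2 of 21 (9.52%) of the FOXO promoters and in 0 of 40 autophagy promoters, against 4.05%. The FOXO elements that the study examined at Map1lc3b lie farther upstream than this window. Absence of the letters here therefore says nothing about such sites. A match describes these letters and is neither a binding site nor a cause of the response.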

How the data were processed

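RNA-seq libraries (TruSeq RNA v2, poly(A)-selected, paired-end) were made from WT and RA MEFs with or without glucose starvation, 2 samples per group, 8 in all. Per the submitters' processing notes, reads were aligned with TopHat2 2.0.9 to mm9, and bedtools and edgeR were used. The counting of genes, its strand setting and the annotation are not given in the sources used here. The deposited values are a signal, read counts per gene that the authors scaled by a library size, so that columns summed to 965845 to 1029723. The design had planned for plain CPM. Every value was a whole multiple of what 1 read is worth, within 0.1 read, which gave 43205841 to 56363034 reads per sample, and 3 reads correspond to 0.0548 to 0.0690. Of the counts from 1 to 9, 78.2 to 80.5% were even, so reads were largely not independent fragments. Columns marked minus and plus were read as normal and starved.

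Genes with a value of 1 or more in 2 or more samples were tested on log2(value + 1) with limma 3.58.1 (trended eBayes, 4 group means, BH adjustment over 16232 genes, threshold 0.05). The departure used the contrast of the RA response less the slope times the WT response, less the intercept, with the line taken as known. edgeR 4.0.16 and DESeq2 1.42.0 were run on the recovered reads. Other alternatives were pseudocounts, filters, scalings, lines, a replicate block and leaving out each sample. Counts were simulated for 16232 genes, with changes placed only in genes averaging 10 CPM or more, 100 genes for each size, and none in the others. Of interactions of 0.5 and 1 (log2), 91% and 100% were recovered with 13 false calls, and of departures 93% and 99% with 10. Recovery in lower genes, or with changes in many genes, was not tested. Genes named were, for each list, the members with the highest and the lowest called departure among those averaging 10 or more, the 5 highest and 5 lowest of all genes by the same rule, Ruvbl1 and Ruvbl2. The result for 1 gene is not reported here. The lists and genes were chosen with earlier results of these data known. Promoters came from RefSeq (GRCm38.p6) and exon overlaps from GENCODE M21, another build than that of the files.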

Additional observations from a re-analysis of the deposited data

Results flagged for a closer look

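The response to starvation differed between WT and RA MEFs for 8207 genes by the test of the interaction (limma, BH-adjusted p under 0.05). The genes named in the report whose interaction passed that test are collected here with their interaction, on the log2 scale, as the RA response less the WT response. A positive value marks a larger rise, a smaller fall or a rise in place of a fall in RA.

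Among immune genes, positive interactions were 5.28 for Ifit3, 3.94 for Ccl2, 1.92 for H2-T23, 0.76 for Cxcl12, 0.43 for Isg20 and 0.38 for Psmb10. Among matrix, contractile and TGF-beta genes, positive interactions were 2.07 for Adam19, 2.04 for Col5a3, 2.03 for Ankrd1, 1.79 for Tgfb3, 0.83 for Adamts1 and 0.40 for Tagln2. Negative ones were -0.78 for Id2 and -0.32 for Postn. Among ATF4 targets, tRNA synthetases and chaperones, positive interactions were 1.42 for Cryab, 0.40 for Lars and 0.24 for Trib3. Negative ones were -0.88 for Shmt1, -0.83 for P4hb, -0.74 for Dnajb1 and -0.45 for Kars. Among autophagy, lysosome and proteasome genes, positive interactions were 0.65 for Atp6v0a1, 0.39 for Naglu and 0.21 for Sqstm1. Negative ones were -0.85 for Map1lc3b, -0.63 for Atp6ap1, -0.59 for Hyal2, -0.24 for Psmd8 and -0.21 for Psma7. Among nutrient-sensing and FOXO genes, positive interactions were 2.002 for Klf2. Negative ones were -1.21 for Ccng2 and -0.45 for Stk11.

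Among lipid genes, positive interactions were 1.82 for Scd2. Negative ones were -0.92 for Ebp and -0.71 for Eci1. Among glucose and mitochondrial genes, positive interactions were 1.27 for Pfkfb4, 0.97 for Nqo1, 0.58 for Ndufb2 and 0.29 for Slc2a1. Negative ones were -0.81 for Ndufb10, -0.42 for Sdhd, -0.28 for Prdx2 and -0.27 for Pgam1. Among ribosome genes, positive interactions were 0.63 for Taf1a. Negative ones were -0.69 for Rps25, -0.62 for Nop10, -0.48 for Mrpl18 and -0.47 for Rpl17. Among cell cycle and DNA genes, positive interactions were 0.89 for Nbn, 0.60 for Anln, 0.53 for Cdkn1a and 0.22 for Cdc20. Negative ones were -1.47 for Ung, -0.72 for Fen1 and -0.72 for Mxd4. Among immediate early, clock and death genes and Pontin complexes, positive interactions were 1.08 for Birc3, 0.94 for Dusp1, 0.56 for Kat5 and 0.48 for Bhlhe40. Negative ones were -0.54 for Apaf1, -0.50 for Uchl5 and -0.31 for Csnk1e. Of the genes named for their place among all tested genes, and Ruvbl1, the interaction was -0.998 for Cd24a, 4.996 for Ifit3b, 4.71 for Oasl2, -0.41 for Hmgb3, 4.72 for Rsad2, -1.14 for Pcolce2, 4.90 for Ifit1 and 0.34 for Ruvbl1. The calls of Naglu, Psma7, Ebp, Cdc20, Isg20 and Psmb10 were lost under at least 1 other setting.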

How the results depend on the processing

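The number of genes with a called interaction stayed within 1.5 times of 8207 under every setting tried, from 6310 to 8578 with other pseudocounts, filters, scalings, blocks and tools and from 7170 to 7931 with 1 sample left out. For the departure the ranges were 5881 to 7790 and 5955 to 6946, against 7364. With the replicate number as a block (replicate block), 8578 interactions and 7790 departures were called. Deviations of samples with the same number correlated from -0.00764 to 0.157 over 6 pairs of groups, with a mean of 0.0659. Whether samples with the same number were handled together is not said in the labels and was not tested. The slope of 0.635 became 0.607 with a pseudocount of 0.1, 0.648 after quantile normalization, 0.546 by least squares, 0.651 without the interferon list and 0.644 over genes outside the lists, and lay between 0.631 and 0.640 with 1 sample left out. The last of the lines and both classes below were chosen after seeing the data. List medians near 0 changed sign. With a least squares line they were 0.00358 for autophagy, 0.0577 for the V-ATPase and -0.0744 for cholesterol synthesis. Relative to genes of the same level class they were 0.00846 for autophagy, 0.0554 for the V-ATPase, 0.00133 for fatty acid oxidation, 0.0121 for fatty acid synthesis and 0.0388 for immediate early factors. Relative to the same response class they were 0.0486 for fatty acid synthesis and 0.0403 for immediate early factors. The V-ATPase median was 0.00671 after quantile normalization, that of fatty acid synthesis 0.00438 with a line through the origin, and that of immediate early factors 0.0251 with no filter on low values. With 1 sample left out, medians ranged from -0.0532 to 0.00724 for fatty acid synthesis, -0.0577 to 0.0309 for immediate early factors and -0.00992 to 0.0674 for Pontin complexes. Signs changed without WT replicate 2 or RA replicate 1 in normal medium for the first, without WT or RA replicate 1 under starvation for the next, and without RA replicate 1 under starvation for the last. The medians of the mTORC1 and clock lists were within their own spread of 0 and also changed sign. In tests of single named genes, the interaction kept its direction and side of the threshold in 1189 cases, lost its call in 18 and gained one in 8, and no called interaction reversed. The causes of these changes were not tested. With 2 samples per group the spread rests on few values. At 0.5 on the log2 scale, simulated interactions were recovered in 91% of 100 changed genes, all averaging 10 CPM or more.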
